A study of Astyanax mexicanus with 22 samples.

Results

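The old batch of surface fish ovaries was compared with the new batch. All 6 libraries whose titles name the old batch of surface fish and all 4 whose titles name the new batch were taken, which makes 10 of the 22 libraries of the series. Bulk RNA was sequenced from the right ovary of Astyanax mexicanus, a teleost with river-dwelling surface fish and blind cave populations such as Pachón, and fish were either starved or left as controls. Every library is labelled wild type (WT) and ovary. The surface old batch held 2 starved and 4 control libraries, and the surface new batch held 2 starved and 2 control libraries. The remaining 12 libraries come from Pachón cavefish of the same batches, with 4 starved and 4 control libraries in the old batch and 2 of each in the new one.

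The study's design gives 2 batches at about 500 and 1200 days after fertilization, and the labels do not say which age belongs to which batch. Batch and age therefore cannot be told apart, and neither can anything else that differed between the batches, such as the day of collection or library preparation. "Old" and "new" below are the batch names in the library titles and are not used as ages. The labels do not say that replicates are separate fish, so p-values measure the spread between these libraries. How long fish were starved is not stated in the labels.

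A fish ovary holds oocytes at many stages, which store maternal RNA and are wrapped in a glycoprotein egg coat. Each oocyte is surrounded by granulosa cells, which make estrogen with aromatase, and outside them lie theca cells, vessels, fibroblasts that lay down collagen, and resident macrophages. Large oocytes carry far more RNA than the somatic cells around them, so they contribute much of the RNA of a whole ovary. In bulk tissue fewer cells of a type and less RNA per cell cannot be told apart.

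The surface libraries held 5026613 to 7171861 counts in genes. Replicates within a group correlated at 0.926 to 0.965 (log2 CPM, across genes). Oocyte genes marked the tissue as labelled: zar1, a maternal-effect gene, was at 471 to 740.3 CPM (counts per 1e6 gene counts, scaled by TMM factors over all libraries) in the old batch and at 599 to 1796 CPM in the new batch. The egg coat list summed to 4767 to 7235 CPM in old and 5834 to 13800 CPM in new ovaries. In a principal component analysis, PC1 carried 28.7% of the variance and separated the batches, with scores of -44 to -11.1 for the old libraries and 28.6 to 58.7 for the new ones. PC2 carried 23% and set replicate 2 of the new starved group, at -87.5, apart from the others. That library also had the largest share of counts in its 50 most abundant genes, 14.1%, and the highest zar1 value. Of 7 library measures (depth, shares of reads in genes, multimapping, unmapped and without a feature, genes detected, share of the top 50 genes), none differed between batches beyond the threshold in exact 2-sided permutation tests within treatment. The smallest p was 0.0667 (adjusted p = 0.272), where 90 arrangements allow no p below 0.0111, so that 1 measure alone could not go below an adjusted 0.0778. Genes detected differed in opposite directions by treatment, and the test used the average of both. In controls, 18055 to 18757 genes were detected in old libraries and 19437 and 19918 in new ones. In starved fish, 18431 and 18812 were detected in old libraries and 17947 and 18005 in new ones.

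**Figure D1:**
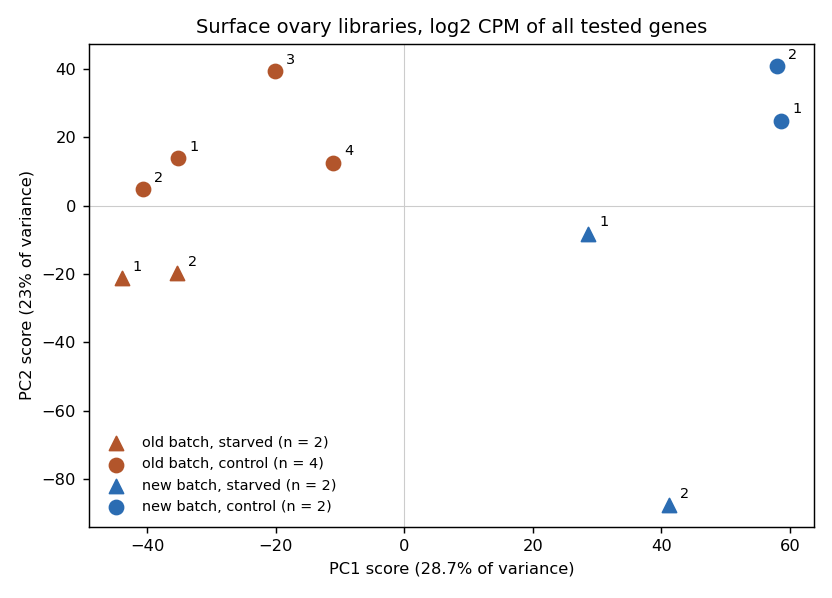
Scores of the 10 surface libraries on PC1 and PC2 of log2 CPM, with the old batch in brown and the new batch in blue, triangles for starved fish and circles for controls, numbered by replicate. The 6 old libraries lie at PC1 scores of -44 to -11.1 and the 4 new ones at 28.6 to 58.7; new starved replicate 2 lies alone at -87.5 on PC2.

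With treatment as a covariate, 512 of 14616 genes (3.5%) passed an adjusted p of 0.05 between the old and new surface batches in edgeR's quasi-likelihood test. Of these, 184 were higher in the old batch (1.26% of genes tested) and 328 lower (2.24%). Among the called genes, 350 differed at least 2-fold, 35 were at least 8-fold higher in old ovaries and 81 at least 8-fold lower. Large changes pass the threshold more easily, so these sizes are partly set by the calling. The median log2 change, old minus new, was 1.22 among the higher and -1.92 among the lower genes, while the median of all genes tested was -0.0045. An unadjusted p under 0.05 was found for 2913 genes (19.9%). In 510 of the 512 called genes the sign was the same in controls and in starved fish, and in 358 every old library lay beyond every new one. Both counts are partly set by the choice, since these genes were called from the same 10 libraries. Over all genes, every old library lay above every new one in 2.62% and below in 3.11%.

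The count rested on few libraries. Without new control 1 it fell to 174 genes and without new control 2 to 158. It was 315 without old control 1, 307 without old control 2, 262 without old starved 1 and 328 without old starved 2, against 1197 without new starved 1. All 10 fits that left out 1 library kept 107 of the 512 calls, 34 higher and 73 lower in old. Below, the number of these 10 fits that kept a gene's call is given beside the main genes. Of 74 genes named in the text and called, 23 were called in all 10 fits. A call given without this number may therefore rest on single libraries.

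Genes with some of the smallest adjusted p are given first (these 4 were chosen after their values were seen). rhbdl2, a rhomboid intramembrane protease, had a lowest, median and highest CPM of 106, 114 and 122 in the old batch, against 13.7 and 15.2 in the new starved libraries and 27.7 and 19.9 in the new controls (where 4 new values stand together below, the 2 starved libraries precede the 2 controls). It was higher in old by 2.55 ± 0.17 on the log2 scale (SE; adjusted p = 0.0001, edgeR). LDLRAD2, which encodes a protein with an LDL receptor class A domain, had 79.2, 82.9 and 87.2 CPM in old and 33.8, 38.6, 38.6 and 40.5 CPM in new ovaries, a log2 change of 1.11 ± 0.08. In both genes every old library lay above every new one. abcg2a, an ABC transporter gene whose human homologue exports drugs and other small molecules, had 2.79, 5.42 and 6.85 CPM in old and 31.7, 90.8, 52.8 and 59.3 CPM in new libraries, a log2 change of -3.52 ± 0.31. ARHGEF28, a guanine nucleotide exchange factor gene, had 80.03, 96.05 and 113 CPM in old and 222, 147, 214 and 224 CPM in new ovaries, a log2 change of -1.12 ± 0.11. All 4 genes kept their call in all 10 fits.

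Several genes were close to silent in the old batch and plainly expressed in the new one. fads2 (ENSAMXG00000015974), the fatty acid desaturase of long-chain polyunsaturated fatty acid synthesis, had a lowest, median and highest CPM of 0, 0.413 and 1.34 in old ovaries. The new starved libraries had 16.4 and 10.5 CPM and the new controls 29.6 and 29.2 CPM. The batches did not overlap, and the log2 change was -5.74 ± 0.56 (SE, adjusted p = 0.00074, edgeR), kept in all 10 fits.

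MYRF (ENSAMXG00000015793), a membrane-bound transcription factor known for its role in myelination in mammals, showed the same shape with 0, 0.414 and 1.53 CPM in old and 18.2, 10.7, 18.1 and 14.3 CPM in new ovaries, a log2 change of -5.13 ± 0.56. In the RefSeq annotation of the AstMex3_surface assembly, 2 protein-coding genes lie between myrf and fads2. One of these is eps8l2, an actin regulator gene, which was at 1.05, 3.17 and 6.3 CPM in old and 4.51, 4.29, 3.38 and 3.72 CPM in new libraries (EPS8L2 was chosen after its values were seen). Its groups overlapped, and its log2 change of -0.28 ± 0.46 did not pass (adjusted p = 0.77).

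The neighbouring genes sqor and ATP8B4 were both lower in old ovaries. sqor (ENSAMXG00000000587), the mitochondrial sulfide:quinone oxidoreductase that oxidizes hydrogen sulfide, had 3.75, 5.99 and 11.2 CPM in old ovaries. In the new batch it reached 94.1 and 169 CPM in starved fish and 334 and 108 CPM in controls, and the log2 change was -4.76 ± 0.43 (adjusted p = 0.00074, chosen after its values were seen). ATP8B4 (ENSAMXG00000000590), a phospholipid-flippase-family ATPase gene, had 0, 0.73 and 1.14 CPM in old and 13.5, 3.0, 19.6 and 14.7 CPM in new ovaries, a log2 change of -4.79 ± 0.55. Neither gene's groups overlapped and both calls held in all 10 fits. The annotated intervals of sqor and atp8b4 overlap in AstMex3_surface, and no source used here states whether counting used strand. Reads of one may therefore have been counted in the other, which was not tested.

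Neighbouring calls were not common. Of 292 called genes that could be placed in that assembly by symbol, 19 (6.51%) lay next to another called gene, against 6.18% of the 8856 placed genes that were not called. Of the 10 neighbour pairs with both genes called, 5 changed in the same direction and 5 in opposite directions.

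cldn26, a claudin of tight junctions, had 0, 0.278 and 1.22 CPM in old and 5.79, 7.08, 26.7 and 20.6 CPM in new ovaries, a log2 change of -5.28 ± 0.54. OSBPL3, which encodes an oxysterol-binding-family protein, had at most 1.26 CPM in old libraries, against 96.6 and 78.6 CPM in the new starved libraries and 43.3 and 1.62 CPM in the new controls (log2 change -5.91 ± 0.84). The batches did not overlap in either gene, though new control 2 lay close to the old range for OSBPL3. si:ch211-122f10.4, which the files give by its clone-based symbol, had 0 to 0.789 CPM in old and 7.77 to 23.2 CPM in new ovaries (log2 change -6.03 ± 0.69).

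IQSEC3, an ARF guanine nucleotide exchange factor gene, was counted 2 times in the 6 old libraries together and 107 times in the 4 new ones. This is a ratio, new over old, of 85.5 with an exact 95% counting interval of 23.1 to 715. phlda1, a pleckstrin-homology-like domain gene, was counted 3 times in old and 136 times in new libraries, a ratio of 72.5 (24.3 to 356). These intervals cover counting error only. IQSEC3 was found in all 4 new libraries, whereas phlda1 was at 0 in new control 1 and kept its call in 3 of 10 fits.

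Other large falls were uneven within the new batch. adm2a, a peptide hormone gene of the adrenomedullin family, had the lowest log2 change of the named falls, -6.84 ± 1.24, from 0, 0.163 and 0.316 CPM in old and 0.161, 4.51, 64.5 and 2.75 CPM in new libraries. adora2b, an adenosine receptor gene, was at most 0.474 CPM in old libraries and at 21.2, 0, 0.508 and 12.3 CPM in new ones, and kept its call in 1 of 10 fits. pknox2, a homeobox gene, had 0.305, 0.622 and 1.34 CPM in old and 46.8, 27, 0.677 and 30.3 CPM in new ovaries. optc, a small leucine-rich proteoglycan gene, had at most 0.349 CPM in old libraries, against 0.644, 5.8, 13.4 and 1.62 CPM in new ones, and its groups did not overlap.

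**Figure D2:**
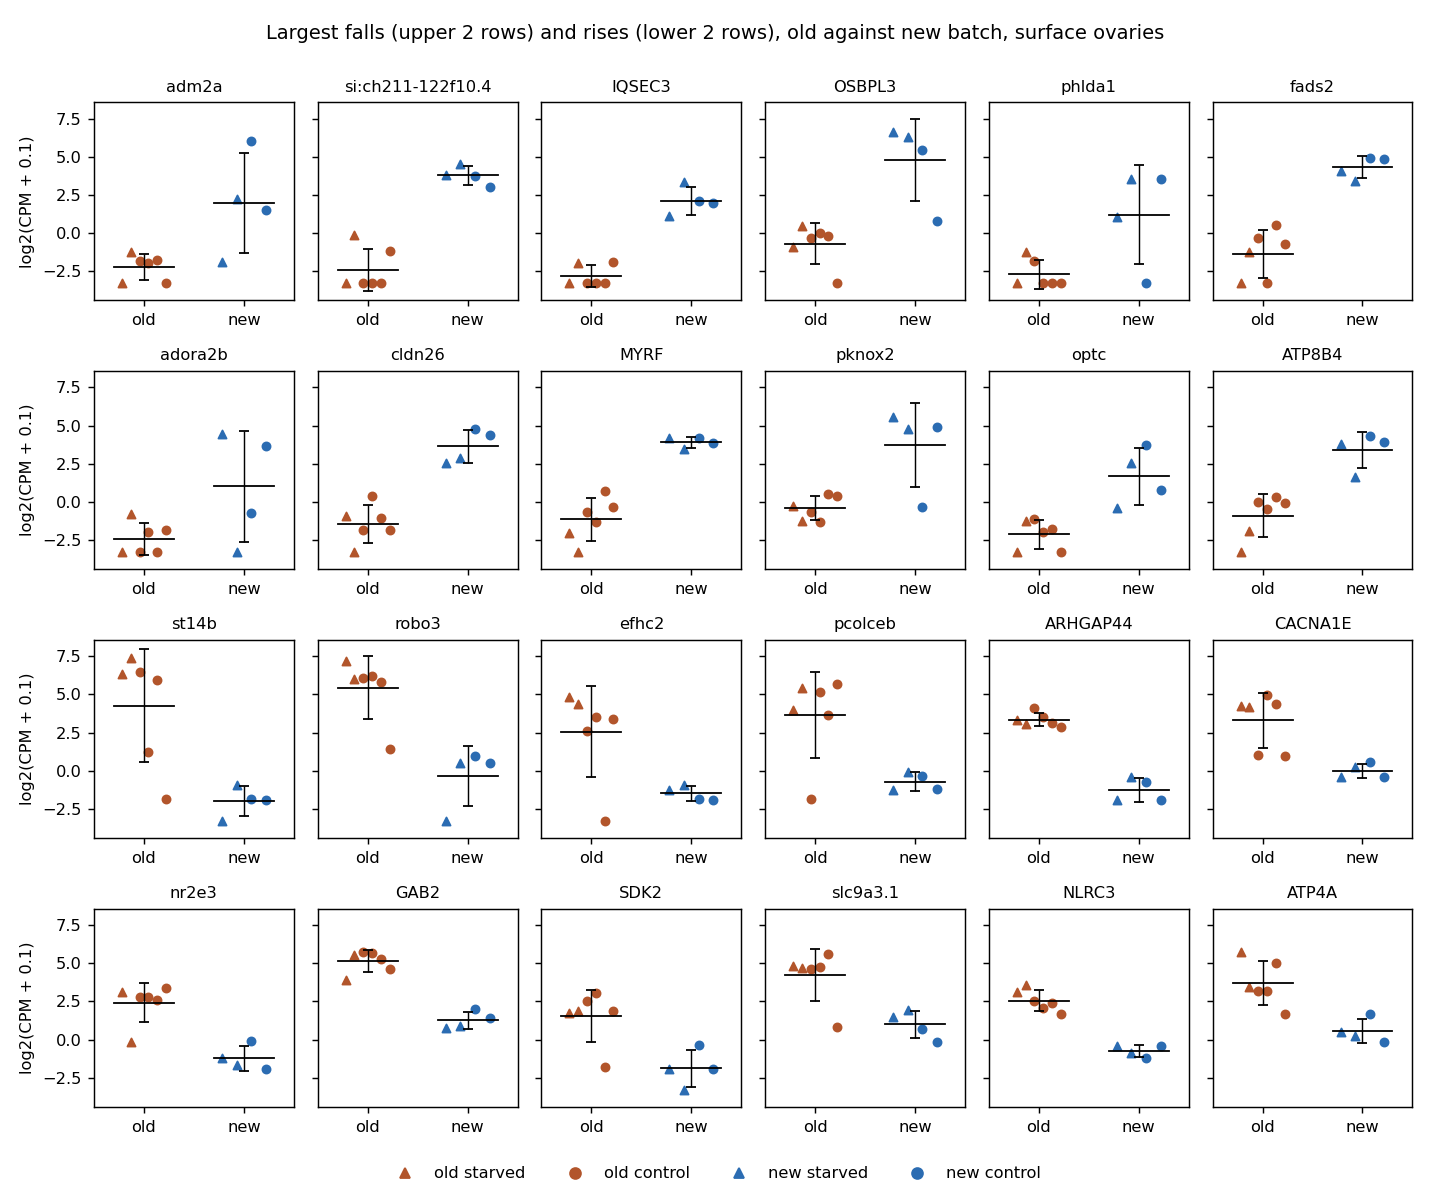
log2(CPM + 0.1) of the 12 largest falls (upper rows) and 12 largest rises (lower rows) among called, named genes, with the old batch left of the new batch in each panel, triangles for starved fish, circles for controls, and black marks for the mean ± SD (n = 6 old, 4 new). fads2, MYRF, IQSEC3 and cldn26 are separated in every library, while adm2a, phlda1, adora2b and pknox2 have new libraries within the old range.

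Rises in the old batch were fewer. Of the 12 largest, 3 were held by every fit and are given first. GAB2 (ENSAMXG00000010088), a docking protein of receptor tyrosine kinase signalling, had a lowest, median and highest CPM of 15, 42.7 and 53.9 in old ovaries, against 1.61 and 1.72 CPM in new starved libraries and 3.89 and 2.59 CPM in new controls. Its log2 change was 3.88 ± 0.4 (adjusted p = 0.00098, edgeR). ARHGAP44, a GTPase-activating protein gene whose symbol stands on 2 gene rows, had 7.32, 9.36 and 17.1 CPM in old and 0.161, 0.644, 0.508 and 0.162 CPM in new ovaries in the row tested (log2 change 4.77 ± 0.47). NLRC3, a gene of the NOD-like receptor family, had 3.07, 5.37 and 11.7 CPM in old and 0.644, 0.429, 0.338 and 0.648 CPM in new ovaries (log2 change 3.61 ± 0.41). None of the 3 overlapped between batches, and all kept their calls in 10 of 10 fits.

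The largest rise was carried by part of the old batch. st14b, a matriptase-family serine protease gene, was at 81.5 and 168 CPM in the old starved libraries and at 89.6, 2.28, 62.8 and 0.17 CPM in the old controls, against at most 0.429 CPM in the new ones. Its log2 change of 8.62 ± 1.85 kept its call in 3 of 10 fits, and old control 4 lay within the new range. robo3, an axon guidance receptor gene with its symbol on 2 gene rows, was similar, with 2.55 CPM in old control 4, 55.7 to 146 CPM in the other old libraries and 0, 1.29, 1.86 and 1.3 CPM in new ovaries (log2 change 5.94 ± 1.03).

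Single low libraries also marked efhc2, which encodes an EF-hand protein of ciliary microtubules. It was at 0 in old control 3 and at 6.1 to 28.1 CPM in the other old libraries, against at most 0.429 CPM in the new batch. pcolceb, which encodes a procollagen C-proteinase enhancer, was at 0.174 CPM in old control 1 and at 12.4 to 51.4 CPM in the others, against at most 0.859 CPM in new ovaries. nr2e3, a nuclear receptor gene known from photoreceptors, was at 0.789 CPM in old starved 2 and at 5.91 to 10.2 CPM in the others, against 0.322, 0.215, 0.846 and 0.162 CPM in new ovaries. In these 3 genes the old library named lay within or below the new range.

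The remaining large rises were a calcium channel subunit gene, CACNA1E (4.05), an adhesion molecule gene, SDK2 (3.85, symbol on 2 gene rows), a sodium/proton exchanger gene, slc9a3.1 (3.74), and the gastric proton pump subunit gene ATP4A (3.58), given as log2 changes. Each of these 4 kept its call in at most 4 of 10 fits.

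Part of the fibroblast and matrix genes were lower in the old batch. Of 15 collagen and stromal matrix genes tested, 8 were lower and 1 higher, with a median log2 change of -1.58, beside 2.24% lower, 1.26% higher and a median of -0.0045 over all genes. The higher member was FBN1, fibrillin 1 of elastic microfibrils, with 54.1, 119.7 and 190.3 CPM in old and 27.198, 44, 40.6 and 41.1 CPM in new ovaries (log2 change 1.64 ± 0.38, adjusted p = 0.043, kept in 3 of 10 fits, chosen after its values were seen). Without 1 library the number lower was 3 (old control 1 or 2), 4 (old starved 1), 5 (old starved 2), 2 (new control 1) or 1 (new control 2), while the median stayed between -1.73 and -1.32. Of 26 rows with a symbol of this list, 15 passed the filter on low counts. Here and in every list, a gene near 0 in a batch can pass that filter through the other batch. Counts and medians of lists are therefore partly set by the filter.

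col1a2, a chain of fibrillar type I collagen, had a lowest, median and highest CPM of 0.158, 2.27 and 7.66 in old ovaries, against 4.67 and 3.22 CPM in new starved libraries and 33.7 and 46.5 CPM in new controls. The new controls stood above all other libraries and the ranges of the batches overlapped, since both new starved libraries were below 2 old controls. Within treatment the batches did not overlap: old starved libraries had 0.72 and 0.158 CPM, and old controls had 1.22 to 7.66 CPM. The log2 change was -3.05 ± 0.47 (adjusted p = 0.0078) and held in all 10 fits. col1a1b, another type I collagen chain, changed by -2.72 ± 0.45, sparc, a collagen-binding matrix protein gene, by -1.77 ± 0.34, and dcn, encoding the proteoglycan decorin, by -2.14 ± 0.44. fbln1, encoding fibulin 1 and with its symbol on 2 gene rows, was the one of these 5 whose batches did not overlap, at 17.5, 21.9 and 26.3 CPM in old and 35.7, 28.5, 32.5 and 40.5 CPM in new ovaries (log2 change -0.68 ± 0.14).

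The same list also had a negative median for treatment, which was not tested as a list. The median log2 change of the stromal genes, starved minus control, was -1.63, although no gene passed for treatment in this fit (0 of 14616 by edgeR, 2612 at an unadjusted p under 0.05). The summed level of the stromal list was 476 to 786 CPM in old and 393 to 864 CPM in new libraries. The part of treatment and of cell composition in this result was not tested beyond the covariate.

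Several other somatic lists had negative medians with at most 2 calls each. Over all genes tested 2.24% were lower and 1.26% higher, and these shares apply beside every list count below. Of 26 basement membrane and integrin genes, 2 were lower and none higher: col4a5, a type IV collagen chain, at -1.48 ± 0.24, and lama5, a laminin chain, at -0.64 ± 0.15, where old ovaries had 95.8 to 169.8 CPM and new ones 179.6 to 254 CPM without overlap. Smooth muscle genes had a median of -1.01 with 1 of 13 lower, the intermediate filament gene desma (-2.59 ± 0.47), at 0.349 to 2.86 CPM in old and 4.94 to 13.5 CPM in new ovaries. Of 9 endothelial genes 1 was lower, the VEGF receptor gene kdrl (-2.5 ± 0.48). Only 5 of these 9 changes were negative. The endothelial median was -0.27, with -1.16 in controls and 1.18 in starved fish. Of 12 epithelial and mesothelial genes, 2 keratins of simple epithelia were lower. krt8, with its symbol on 2 gene rows, changed by -2.22 ± 0.28 and krt18b by -2.08 ± 0.32, and both calls held in all 10 fits. No old library exceeded 12.2 CPM for krt8 or 3.82 CPM for krt18b, and the new controls stood out, at 52.4 and 52 CPM for krt8 and 20.1 and 16 CPM for krt18b. Matrix metalloproteinases, ADAMTS proteases and their inhibitors had a median of -1.08, and none of 14 passed (edgeR; 5 at an unadjusted p under 0.05, 2 by DESeq2, 4 by voom).

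**Figure D3:**
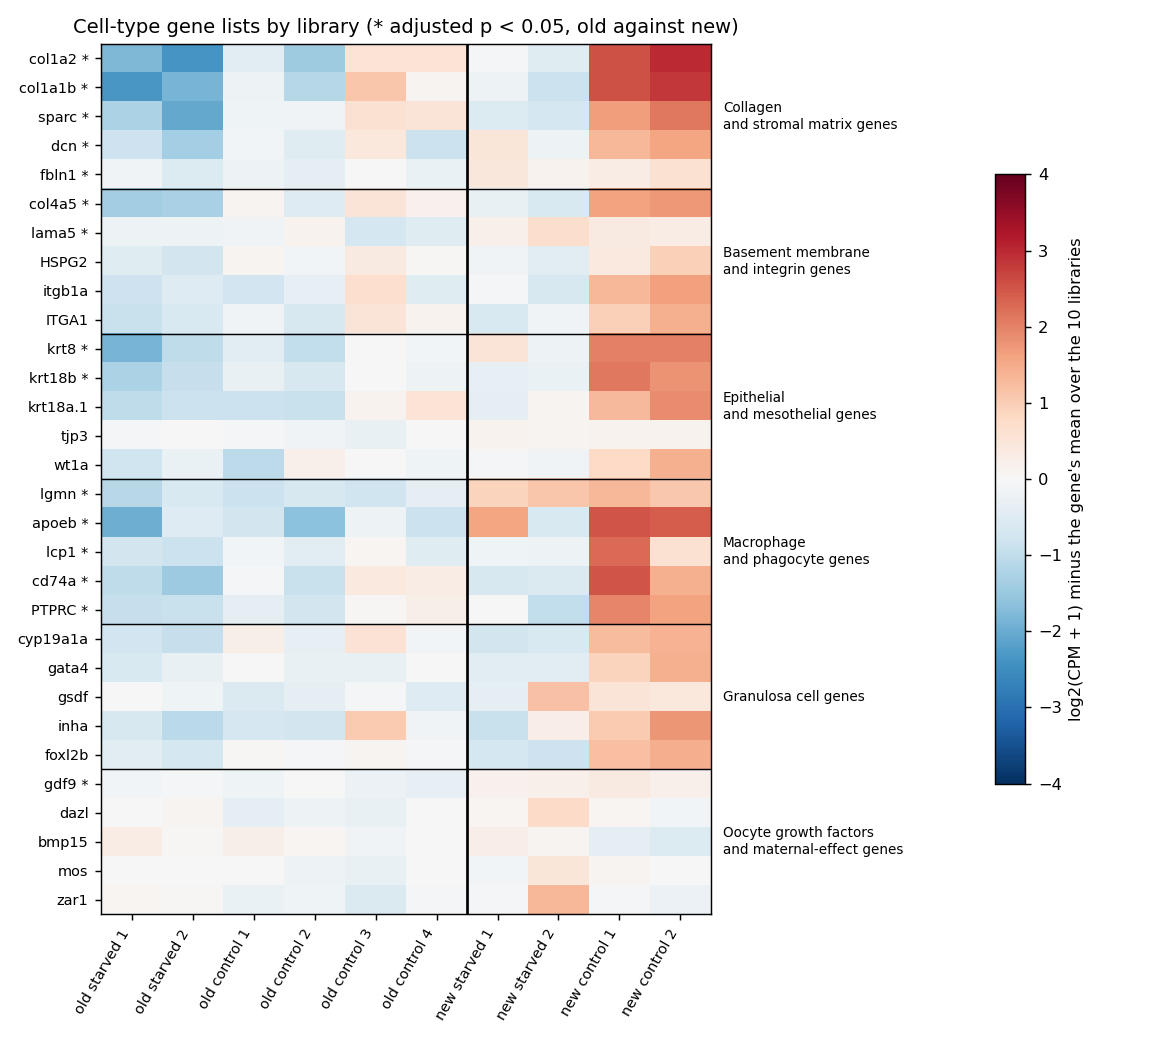
log2(CPM + 1) minus the gene's mean over the 10 surface libraries, for up to 5 members with the smallest p in each of 6 cell-type lists, old libraries left of the black line and new ones right of it. In most stromal, keratin and macrophage genes shown the 2 new controls are the highest columns, lgmn is high in all 4 new libraries, and the oocyte genes vary little apart from zar1 in new starved replicate 2.

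The list gene with the smallest adjusted p stood on the macrophage and phagocyte list. Unlike the other 4 called members of that list, it was high in all 4 new libraries. lgmn, encoding the lysosomal protease legumain, had a lowest, median and highest CPM of 22.2, 29.4 and 36.8 in old ovaries, against 91.6 and 106 CPM in new starved libraries and 125 and 104 CPM in new controls. Its log2 change was -1.9 ± 0.13 (adjusted p = 0.00012, edgeR), with no overlap and in all 10 fits. Of 32 rows with a symbol of the macrophage and phagocyte list, 18 passed the filter on low counts. In all, 5 of these 18 genes were lower in old and none higher, with a median of -1.3. Over all genes 2.24% were lower and 1.26% higher. The count was 2 without any 1 of old controls 1 to 4, old starved 2 or new control 2, 3 without old starved 1, and 1 without new control 1.

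The other 4 followed the new controls. apoeb, an apolipoprotein E gene expressed by macrophages in zebrafish, had 5.62, 13.8 and 21.4 CPM in old and 75.5, 15.9, 144 and 136 CPM in new ovaries (log2 change -2.82 ± 0.47). cd74a, the invariant chain of MHC class II, had 1.89, 4.83 and 9.35 CPM in old and 4.02, 4.29, 44.3 and 20.1 CPM in new ovaries (-1.72 ± 0.39). The leukocyte genes lcp1 (L-plastin, -2.26 ± 0.5) and PTPRC (CD45, -2.3 ± 0.54) were at most 1.87 CPM in any old library, and new control 1 had 10.3 CPM of lcp1 and new control 2 had 6.32 CPM of PTPRC. In each of the 4 at least 1 new starved library lay within the old range, and lcp1, cd74a and PTPRC kept their calls in at most 3 of 10 fits. The whole macrophage list summed to 882 to 977 CPM in old and 929 to 1156 CPM in new libraries.

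Inflammation genes did not move as a group: of 18 tested, 1 was higher and 2 lower, with a median of 0.0064. The higher one was il1b, the cytokine interleukin 1 beta, in the tested row of 2 that carry the symbol. It had 16.9, 40.2 and 50.4 CPM in old and 8.05, 10.7, 7.61 and 15.2 CPM in new ovaries without overlap (log2 change 1.78 ± 0.34, adjusted p = 0.02). cfd, complement factor D, was lower in old (-2.88 ± 0.55, at most 1.7 CPM in old and 2.41 to 8.8 CPM in new libraries), and so was the chemokine gene cxcl12a (-1.89 ± 0.43). itga2b, the platelet integrin chain expressed by fish thrombocytes, was the one of 5 thrombocyte genes called (-2.75 ± 0.6).

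Oocyte genes differed little between the batches in CPM. Oocytes contribute much of the RNA to which CPM are scaled, so small changes of these genes are partly set by the scaling. Of 19 oocyte growth factor and maternal-effect genes, 15 had a negative change, beside 50.6% of all genes tested. The median was -0.11, and 0.058 without new starved 2. Among these genes 1 was called lower and none higher. That gene was gdf9, an oocyte growth factor that acts on granulosa cells, with 48.9, 56.4 and 60.9 CPM in old and 69.5, 72.1, 80.5 and 72.1 CPM in new ovaries. The difference was small and without overlap (log2 change -0.4 ± 0.1, adjusted p = 0.047), and its call held in 2 of 10 fits. bmp15, the partner growth factor of gdf9, had 107 to 146 CPM in old and 144, 128, 93.1 and 81 CPM in new ovaries (log2 change 0.28 ± 0.13, adjusted p = 0.25). zar1 did not pass either (-0.38 ± 0.24, adjusted p = 0.41). None of 8 egg coat genes passed (1 at an unadjusted p under 0.05, 1 by DESeq2, 0 by voom), and none of 15 meiosis genes (3 at an unadjusted p under 0.05, 2 by DESeq2, 2 by voom). All 8 egg coat changes were negative, with a median of -0.22 that was -0.025 without new starved 2.

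Of 17 Piwi-pathway, tudor and germline RNA genes, 1 was lower. tdrd7b, a tudor-domain gene, had 0.609, 1.32 and 4.36 CPM in old and 5.15, 7.51, 28.3 and 21.5 CPM in new ovaries without overlap, a log2 change of -3.08 ± 0.44 kept in all 10 fits. The whole list summed to 3068 to 3456 CPM in old and 2936 to 4104 CPM in new libraries.

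The 10 granulosa genes had a median of -0.78, and none passed (edgeR; 5 at an unadjusted p under 0.05, 0 by DESeq2, 4 by voom). The list's starved minus control median was -2.17, and its summed level was 20.7 to 54.2 CPM in old and 18.3 to 68.3 CPM in new libraries. cyp19a1a, the ovarian aromatase gene, had 0.158, 0.892 and 2.29 CPM in old ovaries, against 0.322 and 0.429 CPM in new starved libraries and 4.23 and 4.7 CPM in new controls (log2 change -1.43 ± 0.46, adjusted p = 0.12). foxl2b, a transcription factor gene of granulosa cells, had the same order of levels, with at most 1.34 CPM in old, 0.322 and 0.215 CPM in new starved libraries and 3.89 and 4.86 CPM in new controls (adjusted p = 0.22). In both genes the new controls were highest, and the new starved libraries lay within the old range except for the lower one of foxl2b, which was below it. amh, the anti-Müllerian hormone gene, was below the filter on low counts and not tested, at 0.576, 1.12 and 1.72 CPM in old and 0, 0.429, 0.508 and 0.486 CPM in new ovaries.

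None of 9 steroid synthesis and theca genes passed (median -0.67, 0 at an unadjusted p under 0.05, 0 by DESeq2, 0 by voom). The median was -0.44 without old control 1 and -0.24 without new control 2. cyp17a1, of androgen synthesis, had 0 to 3.24 CPM in old and 0.161 to 3.08 CPM in new libraries, and star and foxl2a were below the filter with at most 1.13 CPM in any surface library. Among 16 receptor genes 1 was lower, beside 2.24% over all genes. It was the progesterone receptor gene pgr, at 0.864, 4.81 and 13.4 CPM in old and 3.54, 3.43, 27.24 and 37.7 CPM in new ovaries (log2 change -1.77 ± 0.38, adjusted p = 0.031). The gonadotropin receptor genes lhcgr (-0.85 ± 0.72) and fshr (-0.32 ± 0.67) did not pass, and both varied widely within the old controls, where lhcgr had 1.22 to 19.3 CPM. The vitellogenin row with a symbol, vtg3, was at or near 0, with 1 count in the old and 2 in the new libraries.

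Lipid genes changed singly. Of 24 genes of fatty acid synthesis, elongation and desaturation, 3 were lower and 1 higher (median -0.1), beside 2.24% and 1.26% over all genes. Beside fads2, the elongase gene elovl4b had 0.349, 0.93 and 1.91 CPM in old and 8.69, 5.8, 12.5 and 14.1 CPM in new ovaries without overlap (log2 change -3.21 ± 0.43, all 10 fits). MLXIPL, the carbohydrate-response transcription factor ChREBP, was lower as well (-2.48 ± 0.55). ACLY, which makes cytosolic acetyl-CoA, was higher in old, at 191, 236 and 253 CPM against 172, 127, 168 and 165 CPM in new ovaries (0.54 ± 0.11).

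Of 36 fatty acid oxidation genes, 2 were lower and none higher (median -0.02). They encode acyl-CoA dehydrogenases: acadvl, for very long chains, had 175, 200.4 and 244 CPM in old and 269.6, 242, 299 and 315 CPM in new ovaries (-0.53 ± 0.08), and acads, for short chains, changed by -0.6 ± 0.13. plin2, a lipid droplet coat gene, was lower (-3.01 ± 0.72) and dgat1b, of triglyceride synthesis, higher (0.72 ± 0.17) among 10 adipocyte and lipid droplet genes. In the yolk uptake list, LRP8, a lipoprotein receptor gene with its symbol on 2 rows, fell by 2.74 on the log2 scale (SE 0.59). The other called member of that list is 1 of many rows that share the symbol of a cathepsin L gene, and reads may be divided among such copies, so its value is not described.

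Mitochondrial and housekeeping lists stayed near the median of all genes. Of 74 nuclear oxidative phosphorylation genes, 1 was higher and 2 lower in old (median 0.05). sdha, the flavoprotein of succinate dehydrogenase, had 114, 116 and 125 CPM in old and 155, 187, 149 and 153 CPM in new ovaries (-0.44 ± 0.08). ndufs4, of complex I, in the tested row of 4 with that symbol, was lower (-1.67 ± 0.29) and ndufb8, also of complex I, higher (0.63 ± 0.12). None of 78 cytosolic ribosomal protein genes passed (edgeR; 3 at an unadjusted p under 0.05, 1 by DESeq2, 1 by voom), while 72 of them had a negative change and the median was -0.14. Leaving out 1 library moved that median between -0.25 and 0.03.

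Genes tied to growth, division and ageing gave few calls. mcm5, a subunit of the replicative helicase, was the one of 43 cell cycle genes called, at 280.5, 294 and 323 CPM in old and 239, 209, 198 and 212 CPM in new ovaries (log2 change 0.48 ± 0.07, all 10 fits). Among 29 cell cycle inhibitor, senescence and p53 genes, the median was -0.32 and 20 changes were negative, with 10 genes at an unadjusted p under 0.05. The one called was hmgb1a, a chromatin protein gene, higher in old (0.5 ± 0.11); 1 gene was lower with RLE factors, and the median was -0.13 without new control 1. Of 57 DNA repair genes, 1 was higher, fance of the Fanconi anaemia core complex (0.55 ± 0.1), and 1 was lower.

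None of 13 telomere genes passed (1 at an unadjusted p under 0.05, 1 by DESeq2, 0 by voom). In the nutrient-sensing list prkab1a, a regulatory subunit of AMP-activated kinase, was the one of 26 called (0.76 ± 0.14, higher in old). In the insulin list igf1ra, an insulin-like growth factor receptor gene, was the one of 25 (1.19 ± 0.22, higher), at 7.34, 16.4 and 23.1 CPM in old and 5.15, 4.08, 8.4596 and 6.48 CPM in new ovaries. Of 42 autophagy genes 2 were lower, map1lc3a (-1.15 ± 0.21) and wipi1 (-1.46 ± 0.3), both of autophagosome formation. Among 42 lysosome genes hexb, a hexosaminidase subunit, was lower (-0.53 ± 0.09) and ctsa, cathepsin A, higher (0.33 ± 0.07). The nuclear receptor gene nr1d1, a repressor in the circadian clock, was the one of 36 clock genes called, with 9.75, 22.3 and 23.9 CPM in old and 2.74, 2.36, 4.57 and 7.94 CPM in new ovaries (2.08 ± 0.43). The labels do not state the hour at which ovaries were collected.

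Over all 51 lists, 51 of the 1145 genes tested in any list were called (4.45%, against 3.5% of all genes tested). Of these, 39 were lower in old (3.41%, against 2.24%) and 12 higher (1.05%, against 1.26%).

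**Figure D4:**
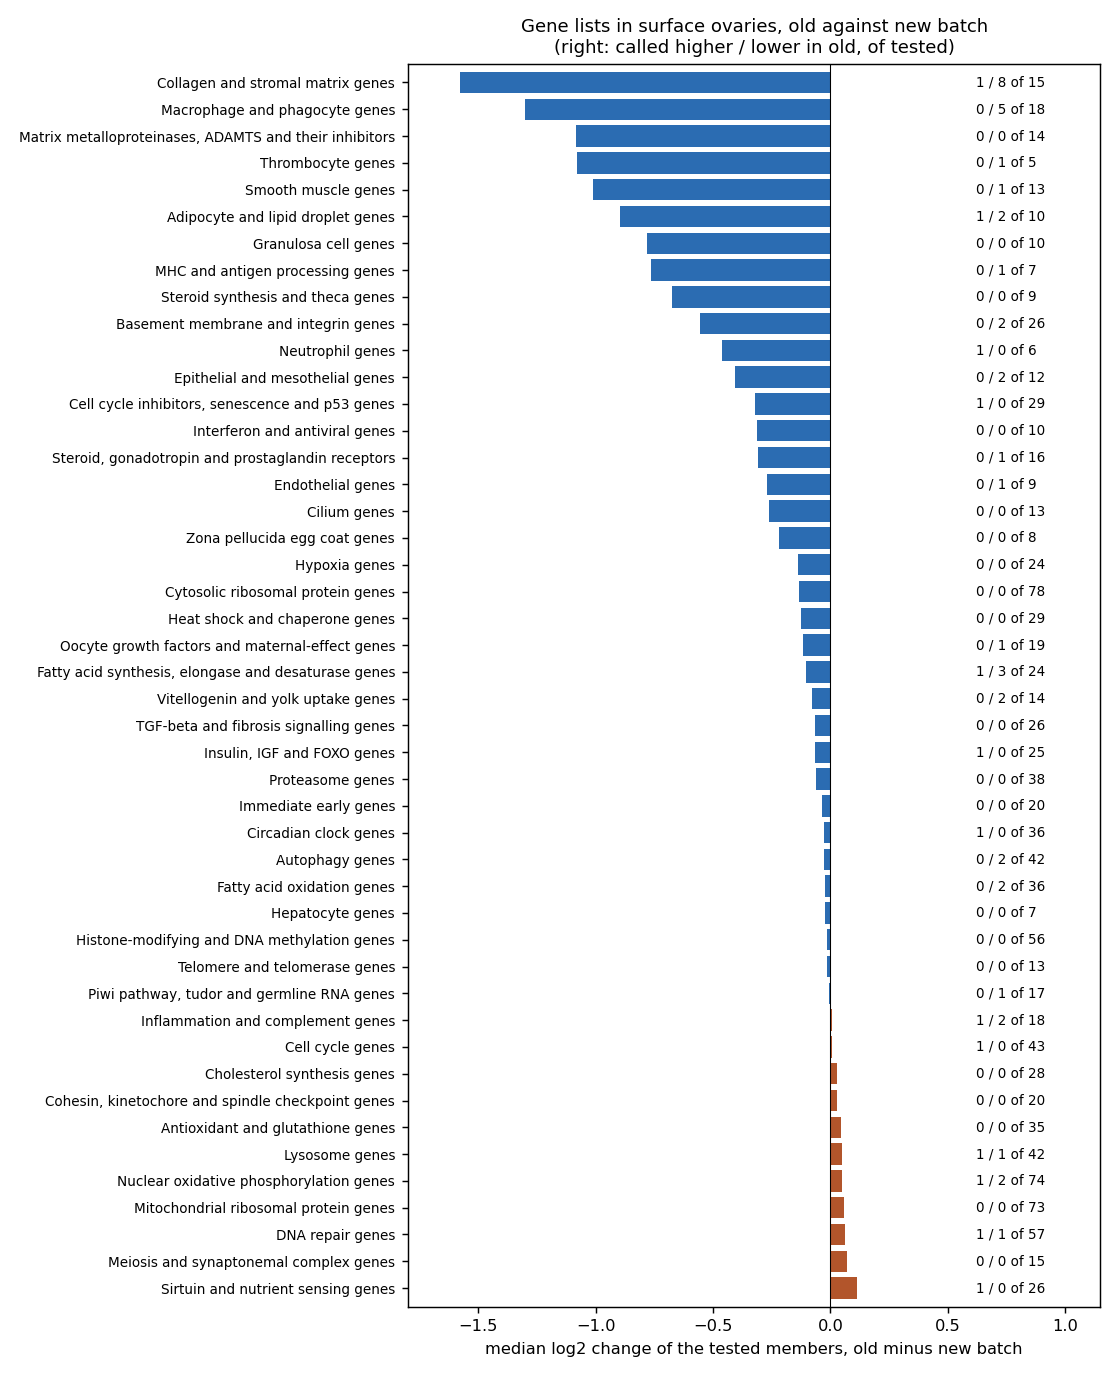
Median log2 change, old minus new batch, of the tested members of each of 46 gene lists, with the numbers called higher and lower in old and the number tested at the right. Stromal (-1.58) and macrophage (-1.3) genes have the lowest medians, and most germline and housekeeping lists lie near 0.

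The batch difference was read within each treatment in a fit with 4 group means. It set 2 old against 2 new libraries in starved fish, and 4 old against 2 new in controls. The new starved libraries also varied most, with a median SD of log2 CPM of 0.365, against 0.155 in new controls. The counts of calls therefore do not measure how strong the difference is in each treatment. In starved fish 31 genes passed (0.212%; 16 or 0.109% higher and 15 or 0.103% lower in old), and in controls 244 passed (1.67%; 73 or 0.499% higher and 171 or 1.17% lower). The difference itself, starved minus control, passed in no gene (edgeR; 941 at an unadjusted p under 0.05, 77 by DESeq2, and 232 by edgeR without new starved 1). rhbdl2 passed in both treatments, at 3.03 ± 0.17 in starved fish and 2.22 ± 0.15 in controls. So did lgmn (-1.87 ± 0.22 in starved fish, -1.92 ± 0.18 in controls), GAB2 (4.19 ± 0.64 in starved fish, 3.69 ± 0.55 in controls) and MYRF (-7.24 ± 0.9 in starved fish, -4.42 ± 0.53 in controls). For col1a2 the change was -3.09 ± 0.94 in starved fish and -3.03 ± 0.57 in controls. For krt18b it was -1.18 ± 0.45 in starved fish and -2.58 ± 0.33 in controls. Neither passed in starved fish. Several somatic list medians lay further from 0 in controls than in starved fish: stromal (-1.93 and -0.72), smooth muscle (-1.37 and -0.23), granulosa (-1.04 and -0.24) and macrophage genes (-1.29 and -0.84). Other lists went the other way, such as egg coat genes (-0.10 and -0.39). These differences of medians were not tested.

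The same batches of Pachón cavefish gave far fewer calls. In a fit of all 22 libraries with 8 group means, 1664 of 15607 genes passed between the old and new batch in surface fish (10.7%; 794 or 5.09% higher and 870 or 5.57% lower) and 40 in Pachón (0.256%; 24 or 0.154% higher and 16 or 0.103% lower). The surface batch difference minus the Pachón batch difference passed in 742 genes (4.75%; 282 or 1.81% higher and 460 or 2.95% lower). Without 1 library this count was 1802 (surface new starved 1), 494 (surface old starved 1), 429 (Pachón new control 1), 407 (Pachón new starved 1) or 409 (Pachón new starved 2). Of the 510 surface calls tested in that fit, 341 passed for the difference between morphs. These genes were chosen for their surface change, which is also part of that difference, so a high share is partly set by the choice. Their median change was -0.83 in surface fish and 0.05 in Pachón. The main test used surface libraries alone because the morphs differ in spread, whereas the 22-library fit shares each gene's spread between them. The biological coefficient of variation was 22.4% in the 22-library fit and 27.8% in the surface fit. Counts of calls and SE from the 2 fits are therefore not alike.

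Surface batch differences of single genes and lists are given from the 10 surface libraries, and Pachón values and differences between morphs from the 22-library fit. The batch difference of rhbdl2 was 2.55 in surface and -0.09 ± 0.09 in Pachón ovaries, where all libraries had 67.1 to 94.9 CPM. lgmn differed by -1.9 in surface and by 0.19 ± 0.11 in Pachón ovaries, which had 87.6 to 134 CPM. GAB2 was at 26.5 to 44.2 CPM in every Pachón library and sqor at 23.3 to 32.1 CPM, with batch differences of 0.17 ± 0.23 and -0.08 ± 0.27. The difference between morphs was 2.72 ± 0.14 for rhbdl2, -2.07 ± 0.17 for lgmn, 3.78 ± 0.4 for GAB2 and -4.57 ± 0.42 for sqor, each past the threshold.

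The Pachón level did not side with one surface batch. It lay nearer to the surface old batch for 268 of the 510 genes and nearer to the new batch for 242. fads2 was at 0.674 to 2.57 CPM in Pachón libraries, between the surface batches. Its log2 difference, Pachón minus surface, was 2.29 for the old batch and -3.63 for the new batch. GAB2 lay within the surface old range in Pachón ovaries, whereas lgmn lay near the surface new range.

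The median of the stromal list was -1.58 in surface fish and 0.53 in Pachón. Of its 15 genes tested in surface fish, the difference between morphs passed for 7 below 0 and 1 above. For the macrophage list the medians were -1.3 in surface and 0.64 in Pachón, with 5 of 18 genes below and 1 above. Over all genes 2.95% passed below 0 and 1.81% above. Both lists are described for their surface change, which is part of this difference, so these counts are partly set by the choice. apoeb varied from 7.27 to 353 CPM among Pachón libraries, and its Pachón difference of 2.15 ± 0.88 did not pass.

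**Figure D5:**
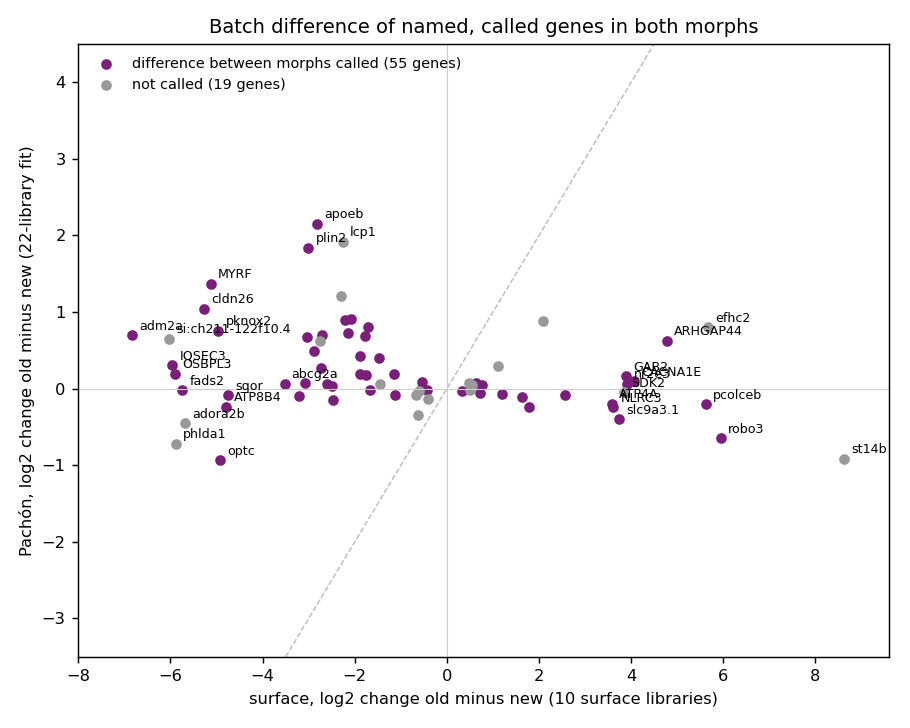
Log2 change, old minus new batch, of the named and called genes in surface ovaries (x axis, 10 surface libraries) and in Pachón ovaries (y axis, 22-library fit), with genes whose difference between morphs passed in purple and the others in grey; the dashed line marks equal changes. The surface changes run from -6.84 to 8.62, and most points lie near 0 on the Pachón axis.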

How the data were processed

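RNA was from right-side ovaries. Per the labels' protocols, Trizol-extracted total RNA was depleted of ribosomal RNA and made into stranded libraries. STAR 2.7.10b and RSEM were used per the submitters' processing notes, which give no roles; build, annotation and strand setting were not given in the sources used here. From the authors come deposited counts per gene, which are whole numbers, and deposited scaled CPM, a signal per gene used in 2 alternatives. Symbols stand on 16752 of 27420 genes. There are 4 rows that name no gene (multimapping, unmapped, no feature, ambiguous), 32.4% to 41.9% of the reads listed in a surface library, which were left out. Columns of no sample numbered 0.

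The 10 surface libraries were fitted in edgeR 4.0.16 (R 4.3.3) with batch and treatment after filterByExpr (minimum count 10, total 15), TMM factors and robust quasi-likelihood. Tests are 2-sided, adjusted by Benjamini-Hochberg over all genes tested, with a threshold of 0.05. The SE is the log2 change over the square root of F. Displayed CPM use TMM factors over all 22 libraries. The biological coefficient of variation was 27.8%. A simulation drawn from the fitted means and dispersions checked that the code recovers known changes. It cannot check how well the model fits these libraries, since the model is true there by construction. Alternatives were RLE factors, DESeq2 1.42.0, limma 3.58.1 (voom weights, or log2 of the deposited CPM plus 1 or 0.1), filters, other sample sets, the replicate block and leaving out each library. Replicates differed by more than counting error (chi-square per degree of freedom 7.59 to 37.3).

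Named genes were the 12 largest rises and falls with mean log2 CPM no lower than 1 and 1 sign in both treatments, up to 5 members per list by p, and fixed ovary genes. Genes named as chosen after their values were seen are exceptions. One called DNA repair gene is not reported here. Members and lists were chosen with earlier results of these data known. Neighbours come from RefSeq on AstMex3_surface by symbol.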

Additional observations from a re-analysis of the deposited data

Results flagged for a closer look

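Each value in this paragraph is the batch difference in surface ovaries minus that in Pachón ovaries, old minus new, on the log2 scale in the 22-library fit. All 55 passed an adjusted p of 0.05 in edgeR, which flagged them, among 74 named genes called between the surface batches, whose surface change is part of this difference. Of the genes chosen by p, the differences were 2.72 for rhbdl2, -3.58 for abcg2a and -1.03 for ARHGEF28. Of the largest falls, they were -6.46 for adm2a, -6.27 for IQSEC3, -6.13 for OSBPL3, -5.89 for fads2, -6.15 for cldn26, -7.2 for MYRF, -5.9 for pknox2, -3.8 for optc and -5.13 for ATP8B4. For sqor, chosen after its values were seen, the difference was -4.57. Of the largest rises, they were 6.88 for robo3, 5.83 for pcolceb, 4.13 for ARHGAP44, 4.0 for CACNA1E, 3.87 for nr2e3, 3.78 for GAB2, 4.17 for slc9a3.1, 3.89 for NLRC3 and 3.95 for ATP4A.

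Of the matrix, vessel and epithelial genes, the differences between morphs were -3.73 for col1a2, -3.43 for col1a1b, -1.9 for sparc, -2.89 for dcn, 1.76 for FBN1, -1.81 for col4a5, -2.62 for desma, -2.62 for kdrl, -3.04 for krt8 and -2.79 for krt18b. Of the genes on the immune lists, they were -2.07 for lgmn, -4.84 for apoeb, -2.31 for cd74a, 2.07 for il1b, -3.32 for cfd and -2.17 for cxcl12a. Of the germline and receptor genes, they were -3.06 for tdrd7b, -2.33 for pgr and -3.1 for LRP8. Of the lipid and mitochondrial genes, they were -2.99 for elovl4b, 0.52 for ACLY, -2.51 for MLXIPL, -0.62 for acadvl, -4.81 for plin2, 0.83 for dgat1b, -0.43 for sdha, -1.67 for ndufs4 and 0.55 for ndufb8. Of the remaining genes, they were 0.71 for prkab1a, 1.23 for igf1ra, -1.29 for map1lc3a, -0.54 for hexb and 0.37 for ctsa.

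In 5 of 89 sets of 4 old surface controls 1 library lay far from the others by Dixon's criterion. Chance flags about 1 in 20 such groups if their values follow a normal distribution. The flagged library was the highest one each time. It was at 0.341 CPM for si:ch211-122f10.4, at 0.17 CPM for IQSEC3 and at 0.174 CPM for phlda1, where the other 3 controls had no counts. Beside 3 values of 0 any count meets the criterion, so these flags cannot tell whether the library is unusual. It was at 125 CPM for sdha and at 107 CPM for hexb.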

How the results depend on the processing

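The count of 512 surface calls was 1308 with DESeq2, 1300 with voom and sample weights, 1664 in the fit of all 22 libraries and 6 in the starved libraries alone; it was 158 to 1197 when 1 library was left out, and within 1.5 times in the other alternatives. With the replicate number as a block it was 184; numbers did not pair the libraries (correlations of deviations -0.2 to 0.114), which share only a number. The 0 calls for the batch difference by treatment became 55 in the 22-library fit and 77 with DESeq2, 0 to 232 without 1 library, and stayed 0 with the block. The 742 calls for the difference between morphs were 1180 with DESeq2, 293 with voom, 404 with the block and 407 to 1802 without 1 library. The 40 Pachón calls were 133 with DESeq2. Among list medians, leaving out 1 library moved the macrophage median between -1.37 and -0.96 and the cell cycle median between -0.014 and 0.13. The batch difference in genes detected (old minus new -317) was 645.5 in starved fish and -1280 in controls. The cause of these shifts was not tested.

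Of 82 named genes tested, all 82 kept their direction and side of the threshold with RLE factors and with DESeq2. Without 1 library, calls were lost most often when a new control was left out (46 and 42 genes). Directions turned only in genes that had not passed: bmp15 was -0.011 in starved libraries alone, EPS8L2 0.15 in controls alone, cyp17a1 0.24 without the treatment term and -0.74 to 0.31 without 1 library, and fshr -0.83 to 0.049 without 1 library. Library sizes without mitochondrially encoded genes were not run, since no such symbol is in the table. At 5026613 to 7171861 counts a library, genes with fewer than about 10 counts were not tested.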

Other observations

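Summed levels of markers of organs next to the ovary were lower in the old batch, though no test was run on sums. The listed exocrine pancreas and gut genes summed to 5.06 to 19.6 CPM in old and 26.6 to 45.5 CPM in new surface libraries, and the listed liver genes summed to 68.8 to 120.2 CPM in old and 126 to 157 CPM in new libraries, in both cases without overlap between the batches. None of 3 pancreas and gut genes tested passed (edgeR; 1 at an unadjusted p under 0.05, 1 by DESeq2, 1 by voom), and none of 7 liver genes (3 at an unadjusted p under 0.05, 1 by DESeq2, 1 by voom). Antigen-processing genes summed to 53.2 to 76.8 CPM in old and 86.9 to 145 CPM in new libraries, also without overlap, with 1 of 7 called, cd74a. In every other list with a sum the batches overlapped, so these sums are the extremes among 51 lists. Among all single genes tested, every old library lay below every new one in 3.11% and above in 2.62%. The sums and the tested members need not move alike: the 7 liver genes had a median log2 change of -0.024, with 4 negative. All 3 pancreas and gut genes tested had a negative change. Which genes carry each sum, and the part of these levels in the results, was not tested.

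Among quality-control, stress and signalling lists, several gave no call. None of 38 proteasome genes (1 at an unadjusted p under 0.05, 0 by DESeq2, 0 by voom), 29 heat shock and chaperone genes (6, 2 and 2), 35 antioxidant genes (5, 2 and 2), 28 cholesterol synthesis genes (3, 1 and 1), 73 mitochondrial ribosomal protein genes (11, 3 and 1), 56 histone-modifying and DNA methylation genes (12, 5 and 7) or 26 TGF-beta and fibrosis signalling genes (10, 5 and 6) passed in edgeR. Likewise none of 24 hypoxia genes (9, 2 and 4), 20 immediate early genes (3, 0 and 0), 20 cohesin and kinetochore genes (3, 0 and 0), 13 cilium genes (2, 2 and 2) or 10 interferon genes (3, 3 and 1) passed. Their medians lay between -0.31 and 0.06; the interferon median was -0.041 without new control 1.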
